A study of Mus musculus with 9 samples.

Results

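Messenger RNA of 8 genes that are abundant in neutrophils was followed in mouse lung: S100a8, S100a9, Retnlg, Csf3r, Cxcr2, Mmp8, Mmp9 and Il1r2. They were taken by symbol from a table of 57010 gene rows. Each of the 8 was matched by its Ensembl identifier, and 8 of 8 were among the 15487 genes abundant enough to be tested, which took 1 TPM or more in 3 or more of the libraries. TPM is a length-corrected share of all transcripts in a library. The lungs came from C57BL/6J mice, an inbred laboratory strain, 3 mice in each of 3 groups. The CuO_TTM mice were instilled with 100 µl of CuO nanoparticles (2 mg/mL). They were also given TTM at 0.02 mg/mL in their drinking water every day. The CuO mice had 1 intratracheal dose of the same nanoparticles, suspended in 100 µl of saline, and drank no TTM. The control mice had 100 µl of saline alone. Tissue was collected on day 7 in all groups. The labels do not spell out TTM, the design holds no group given TTM without particles, and the age and sex of the mice are not given in the sources used here.

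Neutrophils are short-lived phagocytes that leave the bone marrow under the influence of granulocyte colony-stimulating factor, enter tissue by following chemokines, and carry preformed granules of proteases. The mouse lung holds a pool of them within its capillaries even when it is not inflamed, and particles that reach the alveoli are a classical stimulus for their entry. The genes described here cover several steps of that life: calcium-binding alarm proteins of the cytoplasm (S100a8, S100a9), a secreted resistin-like protein (Retnlg), receptors for growth factor, chemokine and interleukin 1 (Csf3r, Cxcr2, Il1r2), and matrix proteases of the granules (Mmp8, Mmp9). In whole lung RNA, fewer neutrophils and less RNA per neutrophil cannot be told apart.

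Every library sums to the same TPM total, so the sequencing depth behind a value is unknown, and the errors given here are the spread between mice. Lung epithelial markers were present in all libraries, but Scgb1a1, the secretory protein of airway club cells, took 0.180% to 8.17% of all TPM in CuO_TTM, 6.90% to 12.3% in CuO and 17.3% to 22.5% in control lungs. Such a share lowers the TPM of all other genes in its library. The median gene lay 0.24 higher on the log2 scale in CuO_TTM than in control, 0.19 higher in CuO_TTM than in CuO and 0.03 higher in CuO than in control. CuO replicate 1 stood apart, its median gene lying 0.53 below the mean of all libraries on the log2 scale. The other 8 libraries lay between -0.16 and 0.26 on that scale.

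S100a8 and S100a9 encode the subunits of calprotectin, a calcium- and metal-binding dimer that neutrophils release at sites of injury, and they were the most abundant of the genes in every library. S100a8 (ENSMUSG00000056054) measured 138, 130.1 and 190.3 TPM in the CuO_TTM lungs, 412, 501 and 228 TPM in the CuO lungs, and 309, 848 and 1792 TPM in the control lungs. S100a9 (ENSMUSG00000056071) measured 224, 221 and 371 TPM in CuO_TTM, 475.5, 954 and 389.5 TPM in CuO, and 577, 1415 and 2741 TPM in control. For both genes the 3 CuO_TTM lungs lay below every other lung, and control replicate 3 was the highest of all 9. The ratio of S100a8 to S100a9, both in TPM, was 0.512 to 0.615 in CuO_TTM lungs, 0.525 to 0.866 in CuO lungs and 0.536 to 0.654 in control lungs. The value of 0.866 belonged to CuO replicate 1. Both genes lie on mouse chromosome 3, next to each other in the RefSeq gene order.

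Retnlg encodes resistin-like gamma, a small secreted protein made in mouse bone marrow and neutrophils. Retnlg (ENSMUSG00000022651) measured 34.4, 19.7 and 32.3 TPM in CuO_TTM, 37.45, 47.85 and 39.4 TPM in CuO, and 39.35, 138 and 433 TPM in control. The CuO_TTM lungs again lay below all others, while the control lungs covered an 11-fold range. It was the third most abundant of the genes in all 9 lungs.

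Among the receptors, Cxcr2, the receptor through which neutrophils follow CXC chemokines, had the same arrangement of groups. Cxcr2 (ENSMUSG00000026180) measured 4.94, 2.82 and 4.6 TPM in CuO_TTM, 6.66, 18.3 and 12.8 TPM in CuO, and 7.21, 21.3 and 30.9 TPM in control. Csf3r (ENSMUSG00000028859), the receptor for granulocyte colony-stimulating factor, measured 20.1, 13.9 and 13.7 TPM in CuO_TTM, 11.1, 35.5 and 24.1 TPM in CuO, and 12.2, 33.35 and 28.55 TPM in control. Its groups overlapped, with the lowest value of all in CuO replicate 1. Il1r2 encodes a decoy receptor that binds interleukin 1 without signalling. Il1r2 (ENSMUSG00000026073) measured 16.65, 4.21 and 4.05 TPM in CuO_TTM, 6.59, 30.8 and 7.09 TPM in CuO, and 2.29, 6.38 and 30.6 TPM in control. In each group a single mouse was high and the other two were low, and the lowest of the 9 lungs was a control.

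The proteases differed from each other. Mmp9, gelatinase B, which cleaves denatured collagen and type IV collagen, had CuO_TTM values below all controls: Mmp9 (ENSMUSG00000017737) measured 5.57, 3.45 and 6.47 TPM in CuO_TTM, 5.77, 13.6 and 11.2 TPM in CuO, and 10.4, 26.6 and 17.3 TPM in control. Mmp8 (ENSMUSG00000005800), the neutrophil collagenase, measured 12.0, 8.74 and 10.9 TPM in CuO_TTM, 5.68, 31.1 and 16.6 TPM in CuO, and 3.5, 13.5 and 30.1 TPM in control. All 3 CuO_TTM values of Mmp8 lay inside the range of the controls.

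**Figure D1:**
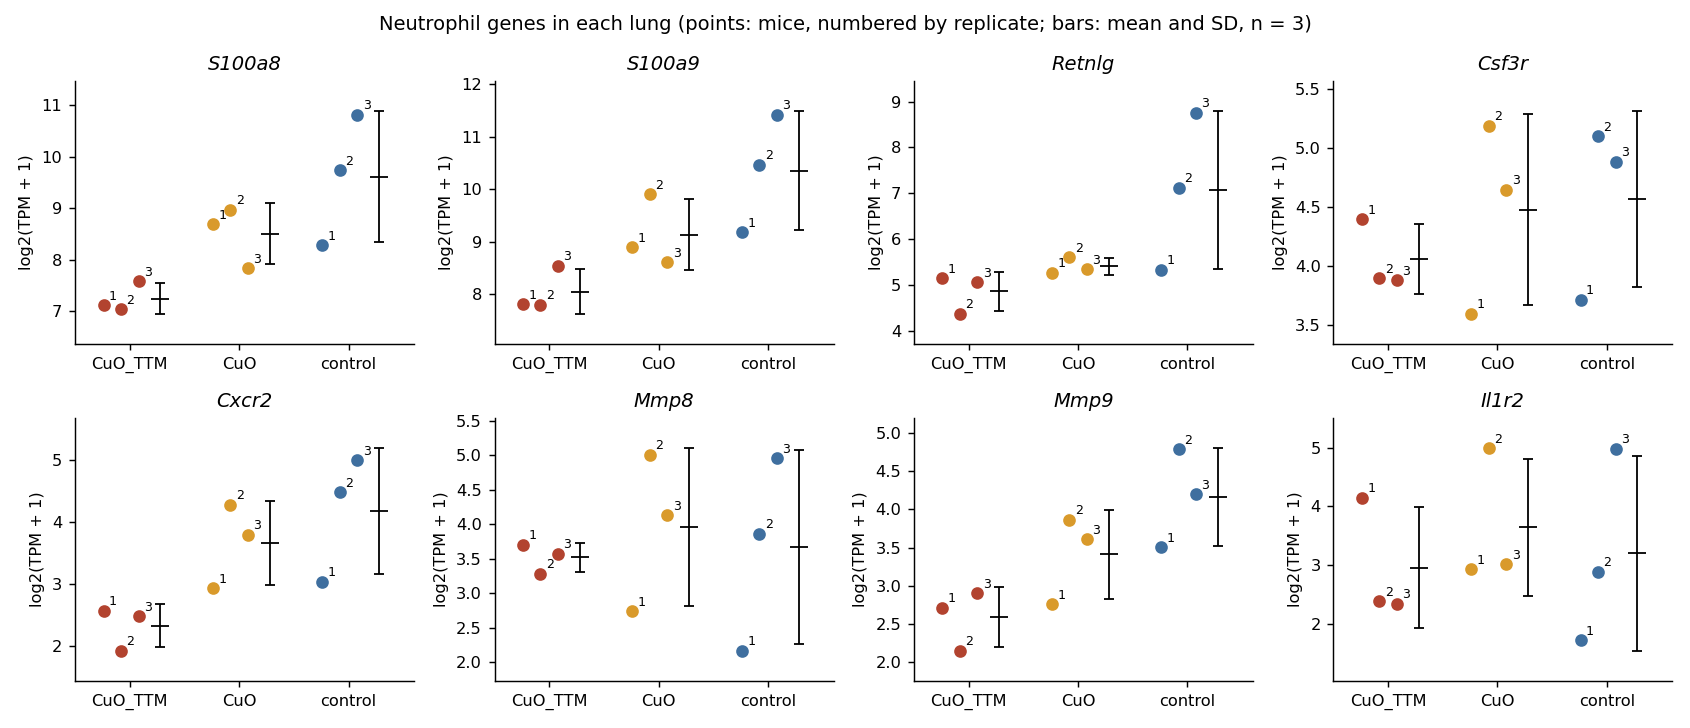
log2(TPM + 1) of each of the 8 genes in each lung, with CuO_TTM, CuO and control from left to right in every panel; points are mice, numbered by replicate, and bars the mean and SD (n = 3). For S100a8, S100a9, Retnlg and Cxcr2 the 3 CuO_TTM lungs lie below all CuO and all control lungs, while Csf3r, Mmp8 and Il1r2 overlap between groups.

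The start regions of these genes are shown because S100a8, S100a9 and Retnlg differed most between CuO_TTM and control lungs and Mmp8 least. RefSeq promoter windows on build GRCm38.p6, 250 bases before to 50 bases after the annotated start, were found for 7 of the 8, Mmp9 being the exception. The deposited table is credited to build GRCm39 in the submitters' processing notes, so these coordinates belong to the RefSeq windows alone. Both strands were searched for 3 motifs: TTGCNNAA, a core of the sites of C/EBP factors, which act in granulocyte development, GAGGAAGT, a form of the PU.1 site, and TGANTCA, the AP-1 site. Printed 5′ to 3′ on the gene's strand are the windows of S100a8 (chr3:90668821-90669120, plus strand), S100a9 (chr3:90695672-90695971, minus strand) and Retnlg (chr16:48872358-48872657, plus strand). Mmp8 (chr9:7558179-7558478, plus strand) is printed beside them. Capitals mark the motif matches.
S100a8: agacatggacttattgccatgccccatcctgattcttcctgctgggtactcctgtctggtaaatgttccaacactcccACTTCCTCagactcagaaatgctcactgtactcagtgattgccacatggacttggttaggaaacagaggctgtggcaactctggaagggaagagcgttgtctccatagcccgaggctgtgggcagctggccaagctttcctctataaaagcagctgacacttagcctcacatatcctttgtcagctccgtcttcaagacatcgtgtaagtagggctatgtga
S100a9: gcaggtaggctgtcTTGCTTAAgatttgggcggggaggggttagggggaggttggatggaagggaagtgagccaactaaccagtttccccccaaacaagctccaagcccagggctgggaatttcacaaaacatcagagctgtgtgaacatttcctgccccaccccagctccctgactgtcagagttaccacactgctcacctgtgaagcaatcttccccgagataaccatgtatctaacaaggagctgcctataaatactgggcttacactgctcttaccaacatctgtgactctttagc
Retnlg: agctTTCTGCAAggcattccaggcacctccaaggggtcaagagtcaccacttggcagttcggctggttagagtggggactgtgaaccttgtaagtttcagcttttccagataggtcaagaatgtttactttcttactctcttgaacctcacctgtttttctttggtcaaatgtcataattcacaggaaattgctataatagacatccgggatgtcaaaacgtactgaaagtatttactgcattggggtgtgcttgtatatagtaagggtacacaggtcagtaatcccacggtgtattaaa
Mmp8: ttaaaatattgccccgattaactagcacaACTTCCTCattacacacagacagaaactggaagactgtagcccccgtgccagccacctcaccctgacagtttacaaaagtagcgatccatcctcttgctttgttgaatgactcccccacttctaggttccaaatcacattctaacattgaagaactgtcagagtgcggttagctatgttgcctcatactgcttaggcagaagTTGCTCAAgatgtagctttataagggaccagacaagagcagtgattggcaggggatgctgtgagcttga
The S100a9 and Retnlg windows hold a C/EBP match whose first base lies at -236 and -246 relative to the start, and the S100a8 window a PU.1 match at -172. The Mmp8 window holds both, the C/EBP match at -19 and the PU.1 match at -221. The windows of Csf3r, Cxcr2 and Il1r2 hold none of these letters. Of all 32851 RefSeq mouse windows of this length, 10.8% hold the C/EBP letters, against 3 of the 7 windows here. The PU.1 letters are in 3.2% of all windows and in 2 of the 7, and the AP-1 letters are in 7.81% of all windows and in 0 of the 7. A match describes the letters only.

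The genes varied together over the lungs to different degrees. Over the 9 libraries, log2(TPM + 1) of S100a8 correlated with S100a9 at a Pearson r of 0.983, with Retnlg at 0.925, with Cxcr2 at 0.894 and with Mmp9 at 0.809. Csf3r correlated with Mmp8 at 0.861, and Mmp8 with Il1r2 at 0.847. Csf3r also correlated with Cxcr2 at 0.809 and with Mmp9 at 0.759. The lowest values were 0.335 for Mmp9 with Il1r2 and 0.464 for S100a8 with Mmp8. These are descriptions over 9 libraries that share the 3 groups and the TPM scale. In the control group, replicate 1 was the lowest lung for all 8 genes, and replicate 3 was the highest for 6 of them. In the CuO group, replicate 2 was the highest for all 8. The highest control lung exceeded the lowest by 13.4-fold for Il1r2, 11-fold for Retnlg, 8.61-fold for Mmp8, 5.80-fold for S100a8, 4.75-fold for S100a9, 4.28-fold for Cxcr2, 2.74-fold for Csf3r and 2.56-fold for Mmp9. Within CuO_TTM the same ratio ran from 1.37-fold for Mmp8 to 1.88-fold for Mmp9, except for 4.11-fold for Il1r2. Summed over the 8 genes, TPM were 455, 404 and 634 in CuO_TTM, 961, 1632 and 728 in CuO, and 961, 2503 and 5104 in control. S100a8 and S100a9 together made up 79.4% to 92.4% of that sum in every lung.

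The comparison of CuO_TTM with control sets particles plus TTM against saline. S100a8 averaged 153 ± 32.8 TPM in CuO_TTM and 983 ± 751 TPM in control (SD, n = 3 each). S100a9 averaged 272 ± 86.0 TPM in CuO_TTM and 1578 ± 1091 TPM in control. The control means of S100a8, S100a9, Retnlg, Cxcr2 and Mmp9 were 6.44, 5.80, 7.07, 4.81 and 3.50 times the CuO_TTM means, and for these 5 genes all CuO_TTM lungs lay below all control lungs. The differences of log2(TPM + 1), a scale that understates changes of low values, were -2.36 (SE 0.57) for S100a8, -2.30 (SE 0.55) for S100a9, -2.21 (SE 0.69) for Retnlg, -1.84 (SE 0.52) for Cxcr2 and -1.57 (SE 0.41) for Mmp9.

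None of these differences passed limma's test across all genes at an adjusted p of 0.05. The limma adjusted p was 0.0718 for S100a9, 0.0728 for S100a8, 0.0915 for Mmp9, 0.112 for Cxcr2 and 0.141 for Retnlg. The unadjusted p was under 0.05 for these 5 genes and for 2795 of the 15487 genes. In this comparison limma called 294 genes, 1.9% of those tested, 277 of them higher and 17 lower in CuO_TTM, so that 0.11% of genes were called lower. Groups that did not overlap with CuO_TTM lower were found for 5 of the 8 genes, against 5.73% of all genes. The median difference was -1.71 over the 8 genes and 0.24 over all genes, and 8 of 8 lay below 0, against 29.0% of all genes.

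The other 3 genes had intervals that spanned 0. Csf3r averaged 15.9 ± 3.63 TPM in CuO_TTM and 24.7 ± 11.1 TPM in control, a log2 difference of -0.51 (95% interval -1.56 to 0.54). Mmp8 averaged 10.6 ± 1.67 TPM in CuO_TTM and 15.7 ± 13.4 TPM in control (-0.14, interval -1.74 to 1.46), and Il1r2 8.30 ± 7.23 TPM in CuO_TTM and 13.1 ± 15.3 TPM in control (-0.24, interval -2.21 to 1.72). The intervals allow a difference in either direction for all 3.

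Whether the larger differences in CuO_TTM against control passed the threshold depended on the processing. Over 20 alternatives limma called Mmp9 in 4, S100a9 in 3, S100a8 in 2, Cxcr2 in 1 and Retnlg in 0. Apart from the 4 runs given next, it called 0 of the 8 genes. With quantile normalization, limma called S100a8 (log2 difference -2.75, adjusted p = 0.0389), S100a9 (-2.63, adjusted p = 0.0339) and Mmp9 (-1.83, adjusted p = 0.0295) lower, where 0.413% of all genes were called lower. With median-ratio scaling it called Mmp9 alone (-1.81, adjusted p = 0.0340), where 0.342% of genes were called lower. A fit of only the CuO_TTM and control lungs called S100a9 and Mmp9 (adjusted p = 0.0460 and 0.0430), with 0.865% of genes called lower. Leaving out CuO replicate 1, a library that enters this comparison only through the pooled spread, left the differences as they were and called S100a8, S100a9, Cxcr2 and Mmp9 (adjusted p = 0.0432, 0.0421, 0.0446 and 0.0283), with 1.12% of genes called lower. Over 20 alternatives the limma adjusted p ran from 0.0389 to 0.506 for S100a8, from 0.0339 to 0.472 for S100a9, from 0.0283 to 0.596 for Mmp9, from 0.0446 to 0.655 for Cxcr2 and from 0.0821 to 0.690 for Retnlg. All 5 kept their direction in 20 of 20.

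**Figure D2:**
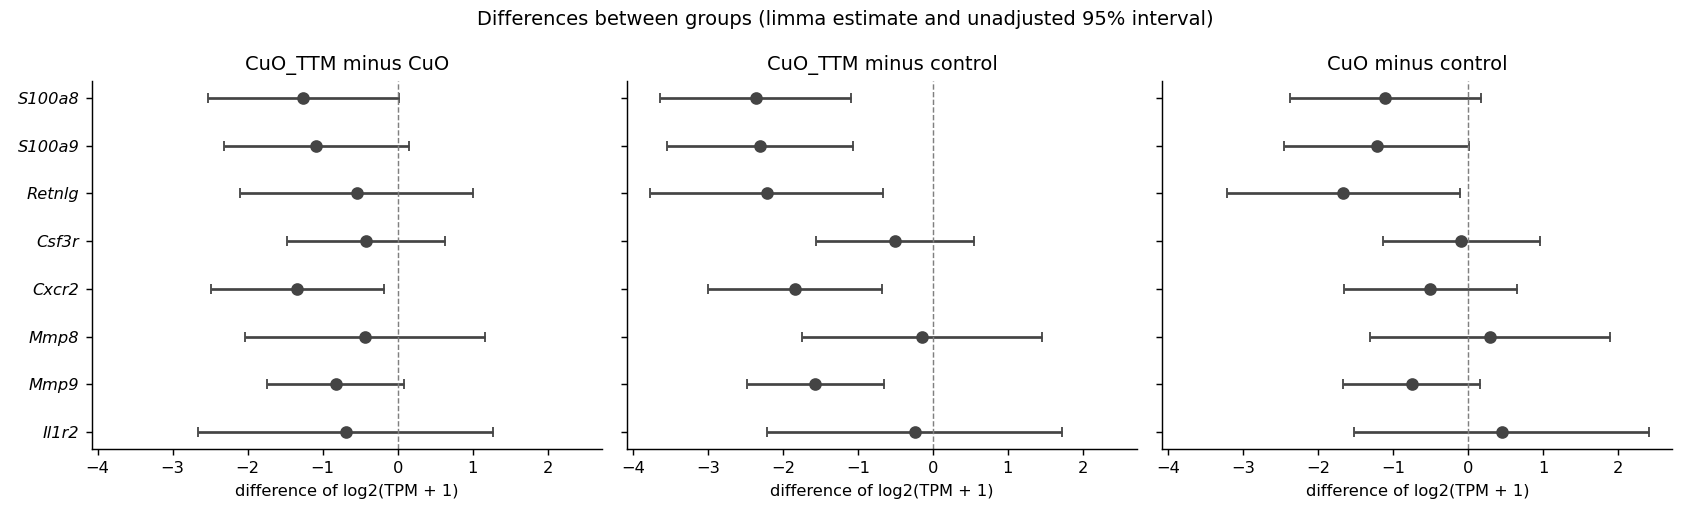
Differences of log2(TPM + 1) between groups for the 8 genes, with panels for CuO_TTM minus CuO, CuO_TTM minus control and CuO minus control; points are limma estimates from all 9 libraries and bars their unadjusted 95% intervals. In CuO_TTM minus control the intervals of S100a8, S100a9, Retnlg, Cxcr2 and Mmp9 lie below 0, and the estimates for Mmp8 and Il1r2 (-0.14 and -0.24) lie near it.

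Setting CuO_TTM against CuO addresses the effect of TTM in lungs that had received particles. It shares its CuO lungs with the comparison of CuO with control and its CuO_TTM lungs with that of CuO_TTM with control, and both of these share the control lungs, so the 3 sets of differences are not independent. All 8 genes had lower means on the log2 scale in CuO_TTM, against 27.4% of all genes. S100a8 averaged 153 ± 32.8 TPM in CuO_TTM and 380 ± 139 TPM in CuO (SD, n = 3 each), and the groups differed by -1.26 on the log2 scale with SE 0.57 (limma adjusted p = 0.655). S100a9 averaged 272 ± 86.0 TPM in CuO_TTM and 606 ± 304 TPM in CuO (-1.09, SE 0.55, limma adjusted p = 0.744). Cxcr2 had the largest difference, with 4.12 ± 1.14 TPM in CuO_TTM and 12.6 ± 5.84 TPM in CuO (-1.34, SE 0.52, limma adjusted p = 0.498), and was the only 1 of the 8 with an unadjusted p under 0.05.

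For S100a8, S100a9, Retnlg and Cxcr2 all CuO_TTM lungs lay below all CuO lungs. That is 4 of 8 genes, against 2% of all genes with groups apart in that direction. Retnlg differed little in size, with 28.8 ± 7.97 TPM in CuO_TTM and 41.6 ± 5.52 TPM in CuO (-0.55, interval -2.10 to 1.01). Mmp9 differed by -0.82 (interval -1.74 to 0.09), Il1r2 by -0.69 (-2.66 to 1.28), Mmp8 by -0.44 (-2.04 to 1.16) and Csf3r by -0.42 (-1.47 to 0.63). limma called 0 of the 8 genes, and 110 of all genes, which is 0.71%. Of those 110, 107 were higher and 3 lower in CuO_TTM, and 1200 genes had an unadjusted p under 0.05. The median difference was -0.76 over the 8 genes and 0.19 over all genes.

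CuO against control addresses the effect of the particles alone at day 7. Retnlg had the largest difference, with 41.6 ± 5.52 TPM in CuO and 203 ± 205 TPM in control (SD, n = 3 each), or -1.67 on the log2 scale (SE 0.69, limma adjusted p = 0.590). S100a9 averaged 606 ± 304 TPM in CuO and 1578 ± 1091 TPM in control (-1.22, SE 0.55, limma adjusted p = 0.628). S100a8 averaged 380 ± 139 TPM in CuO and 983 ± 751 TPM in control (-1.11, SE 0.57, limma adjusted p = 0.694). No gene of the 8 had a mean TPM in CuO that exceeded the control mean except Mmp8, with 17.8 ± 12.8 TPM in CuO and 15.7 ± 13.4 TPM in control, and Il1r2, with 14.8 ± 13.8 TPM in CuO and 13.1 ± 15.3 TPM in control.

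In this comparison 0 of the 8 genes were called by limma, and 0% of all genes. Only Retnlg of the 8 had an unadjusted p under 0.05, as did 1231 of all genes. The groups overlapped for all 8 genes, where 3.53% of all genes had CuO lungs all below the controls. On the log2 scale 6 of 8 lay below 0, against 46.5% of all genes, with a median of -0.63 over the 8 and 0.03 over all genes. That median moved with single lungs. It was -0.28 without CuO replicate 1, -0.39 without control replicate 2, -0.30 without control replicate 3 and -1.07 without control replicate 1, with 5, 5, 5 and 8 of 8 below 0. Mmp9 differed by -0.75 (interval -1.66 to 0.16), Cxcr2 by -0.50 (-1.66 to 0.65), Csf3r by -0.09 (-1.14 to 0.96), Mmp8 by 0.30 (-1.30 to 1.90) and Il1r2 by 0.45 (-1.52 to 2.42). CuO and control lungs were interleaved: CuO replicates 1 and 2 had 412 and 501 TPM of S100a8, above the 309 TPM of control replicate 1.

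Most other genes of mature neutrophils lay on the same side of 0 as most of the 8, with smaller median differences, and some lay on the other side. Of 20 such genes listed beside the 8, 18 were tested. In all 3 comparisons limma called 0 of them, where it called at most 1.9% of all genes. In CuO_TTM against control 12 of 18 lay below 0, against 29.0% of all genes, with a median of -0.53 (0.24 over all genes). In CuO_TTM against CuO it was 11 of 18, against 27.4% of all genes, with a median of -0.15 (0.19 over all genes). CuO against control had 11 of 18 below 0, against 46.5% of all genes, with a median of -0.17. Without CuO replicate 1 that last median was 0.17, and the median of CuO_TTM against CuO was -0.40. Without CuO_TTM replicates 2 and 3, which had 0.180% and 0.353% of their TPM in Scgb1a1, the medians for CuO_TTM were -0.07 against control and 0.12 against CuO. Ly6g, the surface antigen by which mouse neutrophils are commonly recognised, was low. It measured 0.57, 0.27 and 1.12 TPM in CuO_TTM, 0.56, 1.27 and 0.86 TPM in CuO, and 2.02, 3.38 and 6.56 TPM in control. Both exposed groups lay below all controls, with log2 differences of -1.52 (limma adjusted p = 0.0704) for CuO_TTM and -1.31 (limma adjusted p = 0.310) for CuO. G0s2, an inhibitor of triglyceride lipase that neutrophils also express, measured 23.6, 22.15 and 24.8 TPM in CuO_TTM, 32.15, 20.75 and 28.1 TPM in CuO, and 65.7, 49.5 and 36.0 TPM in control. Its differences from control were -1.03 (limma adjusted p = 0.0982) for CuO_TTM and -0.86 (limma adjusted p = 0.419) for CuO. Lungs of CuO_TTM lay below all controls for 2 of the 18, against 5.73% of all genes, and above them for 1, against 31%. For CuO 2 of 18 lay below all controls, against 3.53% of all genes. The 6 above 0 in CuO_TTM against control included Itgam (1.10, limma adjusted p = 0.312), the 1 that lay above all controls. Clec4d (0.91) and Clec4e (0.87) were others, and all 3 were named after their values were seen.

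Granule genes that neutrophils transcribe while still immature were mixed in direction. In CuO_TTM against control and in CuO_TTM against CuO 4 of the 6 tested lay below 0 and 2 above, where 29.0% and 27.4% of all genes lay below. In CuO against control 3 lay below and 3 above, where 46.5% of all genes lay below. Of 12, 6 passed the abundance filter. In any comparison limma called 0 of these, where it called at most 1.9% of all genes. Their medians were -0.75 in CuO_TTM against control, -0.27 in CuO_TTM against CuO and -0.24 in CuO against control. Without CuO replicate 1 the medians of CuO_TTM against CuO and of CuO against control were -0.51 and -0.03, and without CuO_TTM replicates 2 and 3 those of CuO_TTM against control and against CuO were -0.43 and -0.15. Ngp, neutrophilic granule protein, measured 6.0, 6.59 and 18.9 TPM in CuO_TTM, 1.09, 15.0 and 11.4 TPM in CuO, and 35.7, 139 and 9.85 TPM in control. Lcn2, lipocalin 2, an iron-withholding protein that lung epithelium also makes, stood the other way round, with 1278, 979 and 1539 TPM in CuO_TTM, 909, 2591 and 1277 TPM in CuO, and 150.5, 203 and 1732 TPM in control. Its log2 differences from control were 1.72 for CuO_TTM and 1.94 for CuO (limma adjusted p = 0.299 and 0.594). Chil1 was the other gene above 0 in CuO_TTM against control, at 0.43. Lcn2 and Chil1 averaged 1265 and 1042 TPM in CuO_TTM, and the other 4 from 1.95 to 14.5 TPM. Those 4 lay below 0 there: Ngp at -1.91, Ltf at -1.74, Camp at -1.13 and Prtn3 at -0.37. For Ltf all CuO_TTM lungs lay below all controls (limma adjusted p = 0.0943), as for 5.73% of all genes.

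The ligands of Cxcr2 were measured beside their receptor. Of 6 ligand genes, limma called Ppbp lower in CuO_TTM than in control, where 0.11% of all genes were called lower, and 0 in the other comparisons. The median difference was 0.28 in CuO_TTM against control, -0.53 in CuO_TTM against CuO and 0.41 in CuO against control. The first of these medians was -0.01 with quantile normalization. Among the CuO lungs, Cxcl1, Cxcl2, Cxcl3 and Cxcl5 were high in replicate 2 alone. In CuO replicates 1, 2 and 3 Cxcl1 measured 2.56, 57.3 and 3.11 TPM, and Cxcl2 0.44, 25.0 and 1.29 TPM. Cxcl3 measured 1.78, 21.8 and 1.38 TPM there, and Cxcl5 1.49, 67.9 and 4.35 TPM. The other ligands, Ppbp and Cxcl15, were not highest in CuO replicate 2. Medians of this list without CuO replicate 2 were not computed. Without CuO replicate 1 the medians of CuO_TTM against CuO and of CuO against control were -0.96 and 1.30, and without CuO_TTM replicates 2 and 3 that of CuO_TTM against control was 0.68, with 3 of 6 on either side of 0 against CuO. Ppbp encodes the precursor of CXCL7, a chemokine stored in platelets. It measured 10.8, 11.7 and 7.05 TPM in CuO_TTM, 34.0, 15.1 and 21.9 TPM in CuO, and 24.9, 44.7 and 42.4 TPM in control. It fell by 1.80 on the log2 scale in CuO_TTM against control (SE 0.36, limma adjusted p = 0.0413), a call kept in 7 of 20 alternatives, and differed by -1.14 against CuO (limma adjusted p = 0.307). Csf3, the ligand of Csf3r, was too low to test, between 0 and 1.1 TPM in all lungs. Of the 5 tested genes of the interleukin 1 and Csf3 list, 0 were called in any comparison, where at most 1.9% of all genes were called. Il1a, an agonist bound by the decoy Il1r2, had its largest difference in CuO_TTM against CuO at -0.68 (limma adjusted p = 0.857). Il1r1, the signalling receptor, whose gene neighbours Il1r2, differed by 0.77 in CuO_TTM against control (limma adjusted p = 0.353).

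Receptors of calprotectin and regulators of the matrix proteases were listed as well. Of 5 receptor genes 0 were called in any comparison. Of all genes 1.9% were called in CuO_TTM against control, 0.71% in CuO_TTM against CuO and 0% in CuO against control. Ly96, the partner of the lipopolysaccharide receptor Tlr4, differed by 0.85 in CuO_TTM against control (limma adjusted p = 0.200), and Bsg, which encodes basigin, by 0.51 in CuO against control (limma adjusted p = 0.610). Of 6 tested inhibitors and activators of Mmp8 and Mmp9, 0 were called in any comparison, beside the same shares of all genes. Mmp14, a membrane-bound protease that activates other matrix proteases, measured 102, 139 and 145 TPM in CuO_TTM, 53.9, 165 and 116 TPM in CuO, and 28.1, 33.6 and 46.3 TPM in control. The exposed lungs lay above all controls, with log2 differences of 1.82 for CuO_TTM and 1.50 for CuO (limma adjusted p = 0.0549 and 0.283). Of all genes, 31% had CuO_TTM lungs all above the controls, and 9.37% had CuO lungs all above them. Reck, a membrane-anchored inhibitor of Mmp9 and Mmp14, had differences of -0.77 and -1.04 in the same comparisons (limma adjusted p = 0.324 and 0.519). Timp1, another inhibitor, lay the other way at 2.69 and 1.52, with groups that overlapped (limma adjusted p = 0.188 and 0.808). It is named here after its values were seen. Of the 6 tested, 3 lay above 0 and 3 below in each of these comparisons, where 29.0% and 46.5% of all genes lay below.

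The rest of the S100 family was measured beside S100a8 and S100a9. Of 12 other genes, 11 were tested, and all of those except S100b and S100g are on chromosome 3 with S100a8 and S100a9. In CuO_TTM against control 4 of 11 were below 0, against 29.0% of all genes, with a median of 0.21, near the 0.24 of all genes, and 2 were called higher, S100a4 and S100a14, where 1.9% of all genes were called. CuO_TTM lungs lay above all controls for 5 of 11, against 31% of all genes. In CuO against control 2 of 11 were below 0, against 46.5% of all genes, with a median of 0.48 that was 0.30 without CuO replicate 1, and the CuO lungs lay above all controls for 6 of 11, against 9.37% of all genes, with 0 called. In CuO_TTM against CuO 5 of 11 were below 0, against 27.4% of all genes, with a median of 0.02, and the groups were apart with CuO_TTM higher for 1 of 11, against 9.78% of all genes. That median was -0.23 with median-ratio scaling, -0.17 with quantile normalization, -0.09 with Scgb1a1 left out and 0.19 without CuO replicate 1. The median of CuO_TTM against control was 0.11 with median-ratio scaling and 0.50 without CuO_TTM replicates 2 and 3.

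S100a4, a calcium-binding protein of motile cells, fibroblasts and lymphocytes, measured 629, 1295 and 832 TPM in CuO_TTM, 270.1, 393 and 218 TPM in CuO, and 132, 173 and 212 TPM in control. It rose by 2.37 on the log2 scale in CuO_TTM against control (SE 0.34, limma adjusted p = 0.0208), called in 13 of 20 alternatives. S100a14, an epithelial member of the family, measured 64.6, 86.9 and 113 TPM in CuO_TTM, 42.5, 153 and 36.5 TPM in CuO, and 10.6, 6.67 and 19.25 TPM in control. It rose by 2.84 in CuO_TTM against control (SE 0.55, limma adjusted p = 0.0382), called in 8 of 20. Of the resistin family, Retnla, which lies beside Retnlg and is made by macrophages and airway epithelium, was the 1 of 3 other members tested. It measured 2993, 226 and 217 TPM in CuO_TTM, 983, 2358 and 1031 TPM in CuO, and 307, 224 and 3372 TPM in control, with groups that overlapped in all 3 comparisons.

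**Figure D3:**
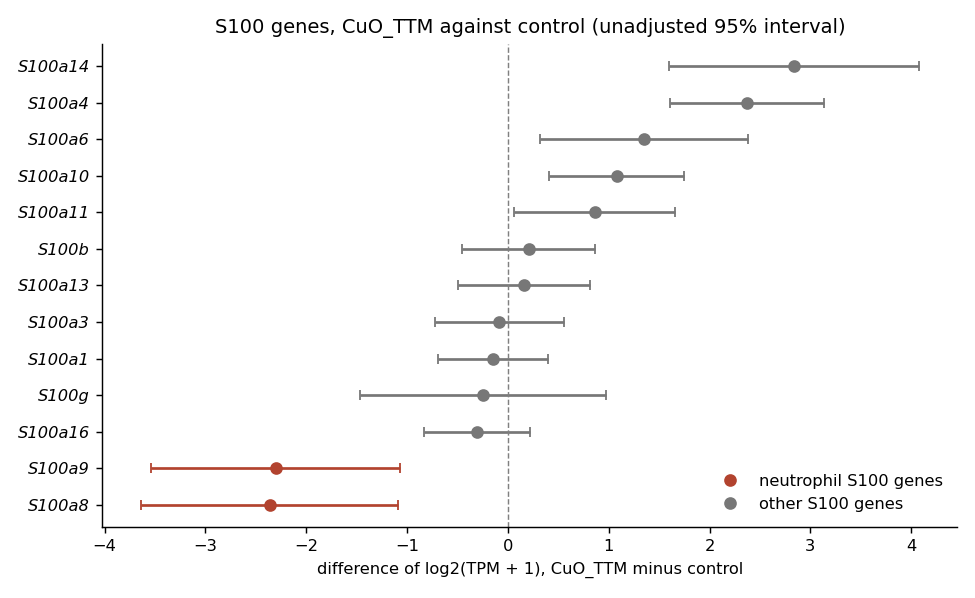
Differences of log2(TPM + 1), CuO_TTM minus control, for S100a8 and S100a9 (red) and the 11 other tested S100 genes (grey); points are limma estimates and bars unadjusted 95% intervals. S100a8 and S100a9 stand at the low end with -2.36 and -2.30, and S100a4 and S100a14, both called, at the high end with 2.37 and 2.84.

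Markers of other blood cells lay on the same side of 0 as the neutrophil genes in part. Red cell markers, which tell of blood left in the tissue, summed to 3270 to 6750 TPM in CuO_TTM, 2831 to 11483 TPM in CuO and 8594 to 15099 TPM in control. Of 7 tested, 7 lay below 0 in CuO_TTM against control, where 29.0% of all genes did, with a median of -1.33 that was -0.83 without CuO_TTM replicates 2 and 3. For 6 of them all CuO_TTM lungs lay below all controls, as for 5.73% of all genes. In CuO against control 7 of 7 lay below 0, where 46.5% of all genes did, with a median of -0.86. limma called 0 of them. Hbb-bs and Hba-a2, globin genes, differed by -1.38 and -1.40 in CuO_TTM against control (limma adjusted p = 0.179 and 0.206). Globin genes have near-identical copies, so their separate values are uncertain. Of 6 tested platelet markers, 5 lay below 0 in CuO_TTM against control with a median of -0.73 that was -0.40 without CuO_TTM replicates 2 and 3. Tubb1, the platelet form of beta-tubulin, fell by 1.42 (limma adjusted p = 0.0319), where 0.11% of all genes were called lower, and was called in 11 of 20 alternatives. Summed platelet markers were 71.0 to 83.0 TPM in CuO_TTM, 36.2 to 71.4 TPM in CuO and 52.6 to 73.9 TPM in control. Pf4, platelet factor 4, held most of that sum and was the 1 of 6 above 0, at 0.88 (limma adjusted p = 0.158), named here after its values were seen. The part of blood content in the neutrophil values was not tested.

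Markers of T cells and macrophages were measured as other sources of lung RNA. T cell markers summed to 509 to 848 TPM in CuO_TTM, 54.4 to 148 TPM in CuO and 87.9 to 122 TPM in control, and 6 of 7 were called higher in CuO_TTM against both control and CuO, where 1.9% and 0.71% of all genes were called, with medians of 2.48 and 2.89. The called genes were Cd3e, Cd3g, Cd3d and Trac, of the T cell receptor complex, and Cd8a and Cd8b1, of its CD8 coreceptor. In CuO against control 7 of 7 lay below 0, against 46.5% of all genes, with a median of -0.34, the same side as most of the neutrophil genes, and 0 were called. Markers of monocytes and interstitial macrophages summed to 1609 to 2829 TPM in CuO_TTM, 679 to 2214 TPM in CuO and 633 to 1114 TPM in control, and C1qa, C1qb and C1qc, which encode complement C1q, were the 3 of 11 called, higher in CuO_TTM than in control, where 1.9% of all genes were called. A larger share of RNA from other cells lowers the TPM of neutrophil genes, and its part in the values was not tested.

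**Figure D4:**
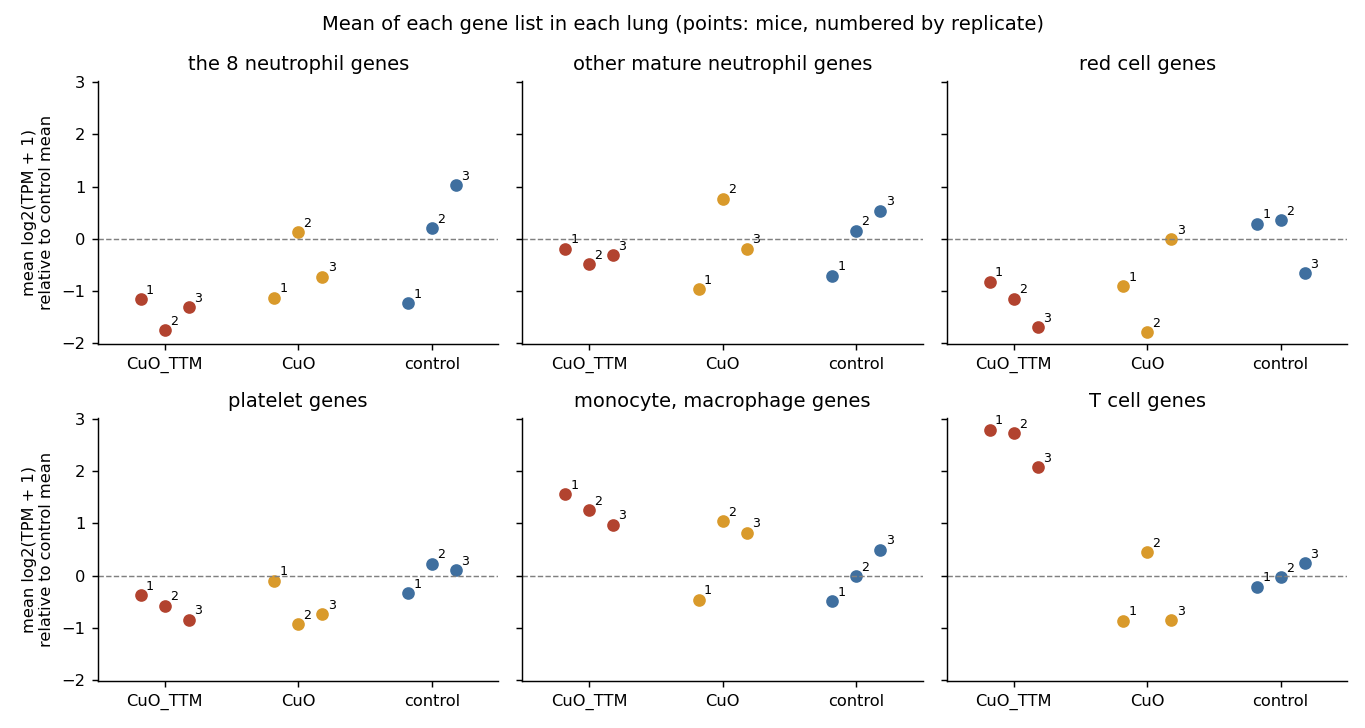
Mean log2(TPM + 1) of marker lists in each lung, relative to the control mean, with CuO_TTM, CuO and control from left to right; points are mice. The mean of the 8 genes is -1.15, -1.74 and -1.30 in CuO_TTM lungs, -1.12, 0.13 and -0.73 in CuO lungs and -1.23, 0.20 and 1.03 in control lungs, so control replicate 1 lies at the level of the CuO_TTM lungs.

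Genes outside the 8 with the most similar pattern were found by their correlation with the mean z-score of the 8 genes over the 9 libraries, among 13436 genes. They were Pram1 with a Pearson r of 0.978, Atf5 (0.910), Il1f9 (0.898), Ifitm6 (0.894), Me3 (0.879), Ccdc191 (0.873), Trem3 (0.872) and Arhgef37 (0.872). Ifitm6 and Trem3 were also on the list of other mature neutrophil genes. Pram1, an adaptor protein of myeloid cells, measured 1.72, 1.08 and 1.38 TPM in CuO_TTM, 1.42, 2.48 and 2.03 TPM in CuO, and 1.29, 2.7 and 3.02 TPM in control. Control replicate 1 was the lowest of the controls for each of Pram1, Atf5 and Il1f9, as it was for the 8 genes. They were picked by their correlation with the 8 over the same lungs, so this is no separate observation. These likenesses describe 9 libraries that share groups and scale.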

How the data were processed

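RNA of 9 mouse lungs was sequenced as poly(A)-selected stranded libraries, per the labels' protocols. The authors deposited 1 table of TPM values with 57010 Ensembl identifiers, 52029 of which matched a symbol. The submitters' processing notes name fastp, HISAT2, RSEM, DESeq2 and the build GRCm39, and their versions and roles are not given in the sources used here. TPM keep no depth, so no interval for counting error was computed.

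From these values, log2(TPM + 1) of the 15487 genes that reached 1 TPM in 3 or more libraries was fitted in R 4.3.3 with limma 3.58.1. The fit had a mean per group over all 9 libraries, an abundance trend and empirical Bayes moderation. Adjusted p-values are Benjamini and Hochberg's over all tested genes within a comparison, at 0.05. limma p-values set a difference of group means against the spread between mice, pooled over the 3 groups and moderated. That spread was unequal between groups. For S100a8 the SD of log2(TPM + 1) was 1.27 in control, 0.59 in CuO and 0.29 in CuO_TTM. The procedure was tested on simulated data. The 8 genes and all lists were chosen with earlier results of these data known. From each other list the text names every called gene, or otherwise the 2 of smallest unadjusted p in CuO against control or CuO_TTM against CuO, and the 8 genes most like the members. Any other gene named was chosen after its values were seen. Alternatives covered scaling, pseudocount, filter, moderation, libraries in the fit, the replicate number and leaving out each library.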

Additional observations from a re-analysis of the deposited data

How the results depend on the processing

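Depth is unknown and 3 mice a group limit what the test can call. The number of genes called by limma depended on the settings. In CuO against control it was 0, but 7 with median-ratio scaling, 3 without a filter on low values, 3 with the replicate number as a block, and 0 to 35 with 1 library left out, 35 being without CuO replicate 1. In CuO_TTM against CuO it was 110, but 41 with a pseudocount of 0.1, 30 without a filter, 67 at a mean of at least 5 TPM, 0 when only the 2 groups were fitted, and 1 to 148 with 1 library left out. Without each of CuO_TTM replicate 3, CuO replicates 1 and 3 and control replicates 1, 2 and 3 it was 60, 56, 69, 52, 52 and 54, and without CuO_TTM replicate 2 it was 1. In CuO_TTM against control it was 294, but 122 with Scgb1a1 left out, 183 with a pseudocount of 0.1, 56 without a filter, 113 with the replicate block and 1378 when only the 2 groups were fitted. With 1 library left out it was 3 to 1660: 8 and 12 without CuO_TTM replicates 2 and 3, 8, 3 and 29 without control replicates 1, 2 and 3, and 1660 without CuO replicate 1. Quantile normalization turned the split of 277 higher and 17 lower into 227 and 64. Leaving out CuO_TTM replicates 2 and 3 together, chosen after seeing the data, gave 1 call in each comparison with CuO_TTM, and the lone sample is there assumed to vary like the other groups. Of the 8 neutrophil genes, 0 were called, but in CuO_TTM against control 3 with quantile normalization, 1 with median-ratio scaling, 2 when only the 2 groups were fitted and 0 to 4 with 1 library left out, 4 being without CuO replicate 1. The replicate block changed no call among the 8. Lungs with the same number deviated together at correlations of -0.371 to 0.286. Lungs with different numbers were not compared, so these values cannot show whether the numbers pair the mice. The directions of S100a8, S100a9, Retnlg, Cxcr2 and Mmp9 held in every alternative run, and those of all 8 under each scaling. Without CuO_TTM replicates 2 and 3, Il1r2 turned to 0.50 against CuO and 0.95 against control, and Mmp8 to 0.038 against control. With 1 library left out, CuO against control ran from -0.51 to 0.35 for Csf3r, from -0.45 to 0.94 for Mmp8 and from -0.29 to 1.34 for Il1r2. Likewise Mmp8 ran from -1.05 to 0.083 in CuO_TTM against CuO, and from -0.89 to 0.50 in CuO_TTM against control, where Il1r2 ran from -0.98 to 0.65. None of these was called, and the cause was not tested. The median difference of the 8 genes ran, with 1 library left out, from -1.07 to -0.28 in CuO against control, from -1.10 to -0.50 (without CuO_TTM replicate 2; -0.48 without CuO_TTM replicates 2 and 3) in CuO_TTM against CuO and from -2.15 to -1.40 in CuO_TTM against control.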

Other observations

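Markers of further lung cells give the setting of the neutrophil values. Alveolar macrophage markers, genes of the resident phagocytes of the airspace, summed to 269.5 to 1971 TPM in CuO_TTM, 250.3 to 1216 TPM in CuO and 549 to 1566 TPM in control. In CuO against control 10 of 10 lay below 0, against 46.5% of all genes, with a median of -1.74, and limma called 0. Marco, a scavenger receptor, was called higher in CuO_TTM than in CuO (3.63, limma adjusted p = 0.0425), in 8 of 20 alternatives, and Fabp1 was called lower in CuO_TTM than in control (-3.18, limma adjusted p = 0.0372), in 11 of 20. Of all genes 0.71% and 1.9% were called in these 2 comparisons. B cell markers summed to 41.2 to 201 TPM in CuO_TTM, 21.7 to 27.6 TPM in CuO and 31.4 to 87.2 TPM in control. In CuO_TTM against CuO 5 of 5 lay above 0 (median 1.45, and 2.63 without CuO_TTM replicates 2 and 3), where only 27.4% of all genes lay below 0. In that comparison 0 were called, with Cd79a and Cd79b of the B cell receptor differing by 1.71 and 1.45 (limma adjusted p = 0.431 and 0.353). Endothelial markers had 6 of 6 below 0 in both comparisons with control, with medians of -0.65 for CuO_TTM and -0.70 for CuO and 0 called. Of all genes 29.0% and 46.5% lay below 0 there. Ednrb, an endothelin receptor, differed by -1.81 in CuO against control (limma adjusted p = 0.170), and Car4, a carbonic anhydrase also on the alveolar macrophage list, by 0.52 in CuO_TTM against CuO (limma adjusted p = 0.858). Epithelial markers had medians of -0.27, -0.06 and -0.05 in CuO_TTM against control, CuO_TTM against CuO and CuO against control, with 0 of 7 called. Without CuO_TTM replicates 2 and 3 the medians for CuO_TTM were -0.60 against control and -0.26 against CuO. Foxj1, a factor of ciliated cells, and Scgb1a1 differed by -2.47 and -3.59 in CuO_TTM against CuO (limma adjusted p = 0.301 and 0.314). Only 3 of 10 eosinophil and mast cell markers passed the abundance filter, and 0 were called, with Cma1, a mast cell chymase, at -1.05 and Prg2, an eosinophil granule protein, at -1.11 in CuO against control (limma adjusted p = 0.559 and 0.899). Prg2 measured 0, 16.5 and 0.19 TPM in control and 0.36, 0.13 and 0.34 TPM in CuO, so its difference rested on control replicate 2. Epx, a defining gene of eosinophils, was listed at 0 in 7 of 9 libraries.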
